A study of Mus musculus with 6 samples.

Results

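The Eph receptors and ephrins described here are 10 genes, taken by symbol from a table of 21959 genes in mouse cells labelled HL-1. They are the receptors Epha2, Epha4, Epha7, Ephb2, Ephb3 and Ephb4 and the ligands Efna5, Efnb1, Efnb2 and Efnb3. The 10 were selected on their read counts in phillyrin against OGD/R libraries, Epha4 for the size of its decrease, so their fold changes are given as a description and no p-value of theirs is printed. Counts of members past a threshold appear once, beside the same share over all genes, and are no evidence about the members. The other 12 genes of the families in the table are given beside them, so that all 14 receptors and 8 ephrins are accounted for.

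Poly(A) RNA was sequenced from 6 libraries of these cells, described as wild type. HL-1 is the name of a line established from mouse atrial myocytes, an origin that the markers given below do not bear out. In 3 libraries, called phillyrin libraries below, cells were given phillyrin, a plant lignan from Forsythia, at 50 µg/mL for 8 h before the insult and for a further 16 h with it. In the other 3, called OGD/R libraries, cells had the insult without phillyrin. The insult is OGD/R, oxygen and glucose deprivation with later reoxygenation. For all 6 the labels give 4 h without glucose and oxygen and 24 h of reoxygenation, and all 6 carry the same batch label. The solvent of phillyrin has no control group among these samples, and untreated cells are not analysed here. Library totals were 14761317 to 22123648 counts in phillyrin libraries and 18179405 to 20433200 in OGD/R libraries.

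Eph receptors are the largest family of receptor tyrosine kinases. Their ligands, the ephrins, are also held on the cell surface, so signalling needs contact between cells and runs both ways: forward into the cell with the receptor and in reverse into the cell with the ephrin. Ephrin-A ligands have a lipid (GPI) anchor and bind mainly EphA receptors, whereas ephrin-B ligands cross the membrane and bind mainly EphB receptors. EphA4 is an exception and binds both classes. The outcome is often repulsion or rounding, as in the guidance of motor axons to limb muscle.

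Transcripts that define atrial muscle were nearly absent. Of 12 atrial and cardiac markers, 10 were below 0.5 CPM in every library and 3, Myh6, Mybpc3 and Actn2, had no count. The 8 skeletal myoblast markers summed to between 1188 and 1247 CPM in phillyrin libraries and between 1254 and 1276 CPM in OGD/R libraries. The log2 fold changes of the 7 tested, phillyrin minus OGD/R, ran from -1.55 to 0.23, with a median of -0.17. Of these 7, Myod1 rose and 4 fell, including Cdh15 and Myf5, by the adjusted p of edgeR. These are 71.4% of those tested, where 31.7% of all genes tested passed, 16% higher and 15.6% lower. The list was drawn up with earlier results of these data known, and nothing is read from its share. Because of the marker levels, the cells are called by their label only. CPM puts counts on a common library size, here after TMM factors that correct for library composition.

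Epha4 (ENSMUSG00000026235, chromosome 1, 77343822 to 77491725, minus strand, GRCm39) was the member with the largest difference. It had 253, 262 and 210 read counts in phillyrin libraries 1 to 3, and 760, 754 and 804 in OGD/R libraries 1 to 3. Scaled, these were 14.8, 12.0 and 14.6 CPM in phillyrin libraries, against 41.1, 36.4 and 42.3 CPM in OGD/R libraries. The groups lay far apart: the highest phillyrin library was below the lowest OGD/R library by more than the range within either group. The log2 fold change, phillyrin minus OGD/R, was -1.54 ± 0.09 (SE), a level 0.343 times that in OGD/R. Only 16 of the 11658 genes tested had a lower log2 fold change. Since Epha4 was selected for the size of its decrease, this rank follows from the selection and is no separate result.

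Epha2 (ENSMUSG00000006445, chromosome 4, 141028551 to 141056695), the receptor for ephrin-A ligands best known from epithelia and tumours, was the most abundant receptor. It stood at 197, 216 and 210 CPM in phillyrin libraries, against 265, 253 and 263 CPM in OGD/R libraries. The groups did not overlap, and the log2 fold change was -0.33 ± 0.04 (SE). Epha7 (ENSMUSG00000028289, chromosome 4, 28813131 to 28967499), which acts in mouse myoblasts as they differentiate, had 0 counts in all 6 libraries. Over their summed depth this allows up to 0.0269 CPM, counting error only.

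The EphB members were Ephb4, Ephb3 and Ephb2. Ephb4 (ENSMUSG00000029710, chromosome 5, 137348371 to 137376931), the venous partner of ephrin-B2, stood at 26.4, 25.5 and 24.8 CPM in phillyrin libraries and 27.1, 29.8 and 28.1 CPM in OGD/R libraries, a log2 fold change of -0.15 ± 0.08 (SE). The groups did not overlap, but the gap between them was smaller than the range within either. Ephb4 lies opposite Zan, and the strand setting of the counting is not given in the sources used here. Zan had 0 counts in each phillyrin library and at most 2 in an OGD/R library. Ephb3 (ENSMUSG00000005958, chromosome 16, 21023505 to 21042055), a receptor of axon guidance and gut crypt boundaries, averaged 4.34 ± 0.657 CPM in phillyrin libraries and 5.23 ± 0.332 CPM in OGD/R libraries (SD, n = 3 each), with overlapping groups. Ephb2 (ENSMUSG00000028664, chromosome 4, 136374850 to 136563299), a close relative of Ephb3, had 35, 59 and 33 counts in phillyrin libraries and 21, 36 and 38 in OGD/R libraries. In CPM its groups barely missed each other, at 2.05, 2.70 and 2.30 in phillyrin libraries against 1.14, 1.74 and 2.00 in OGD/R libraries. Its log2 fold change of 0.54 has an SE of 0.27, and it was 0.34 without OGD/R replicate 1 and 0.71 without OGD/R replicate 3.

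Among the ligands, Efnb2 (ENSMUSG00000001300, chromosome 8, 8667434 to 8711242), ephrin-B2 of arterial endothelium, was the most abundant. It stood at 113, 106 and 106 CPM in phillyrin libraries, against 128, 129 and 128 CPM in OGD/R libraries. The groups did not overlap, and the log2 fold change was -0.25 ± 0.04 (SE). Efna5 (ENSMUSG00000048915, chromosome 17, 62911179 to 63188312), a repellent for growing axons, stood at 14.5, 17.0 and 13.6 CPM in phillyrin libraries, against 18.5, 18.8 and 19.9 CPM in OGD/R libraries. Every phillyrin library was below every OGD/R library, with a log2 fold change of -0.33 ± 0.10 (SE). Efnb1 (ENSMUSG00000031217, chromosome X, 98179736 to 98192597), the X-linked ephrin-B of craniofacial development, averaged 20.5 ± 1.78 CPM in phillyrin libraries and 19.4 ± 0.971 CPM in OGD/R libraries (SD, n = 3 each), and its groups overlapped. Efnb3 (ENSMUSG00000003934, chromosome 11, 69444918 to 69451031), the midline ephrin of the spinal cord, had between 18 and 38 counts in phillyrin libraries and between 27 and 45 in OGD/R libraries, and its groups overlapped too.

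**Figure D1:**
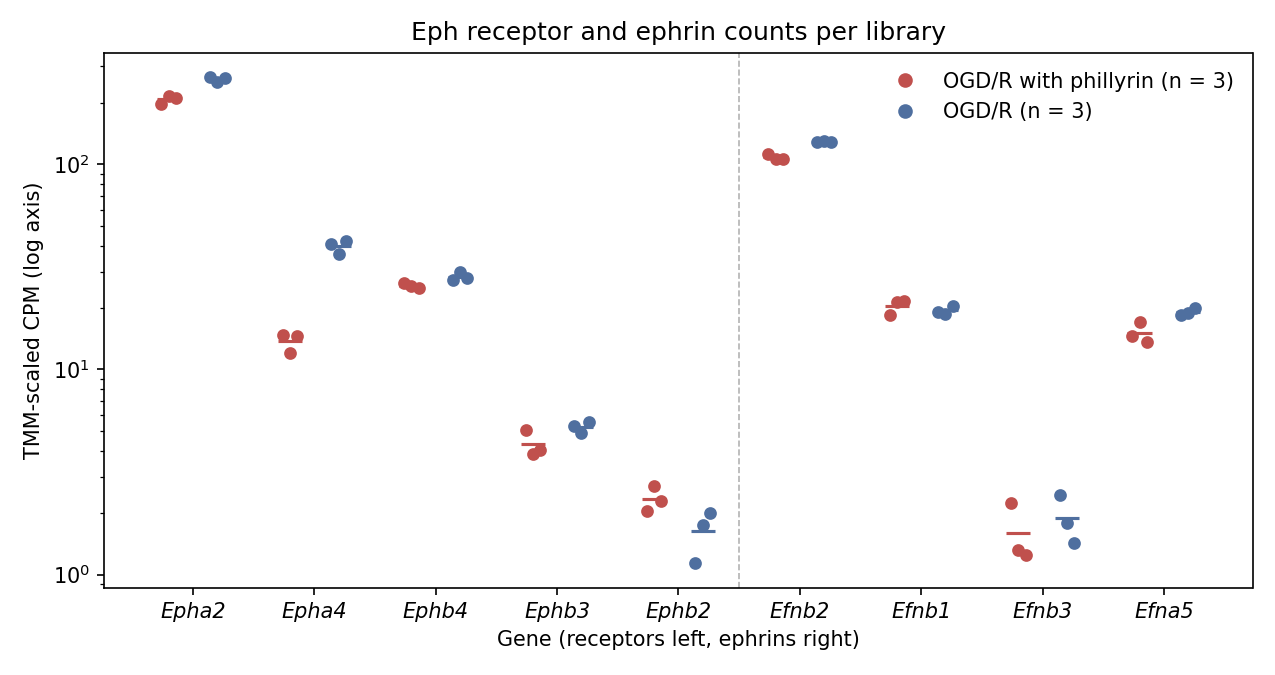
TMM-scaled CPM on a log axis for the 9 members with counts, with 1 point per library and a bar at the group mean; phillyrin libraries are left of OGD/R libraries for each gene. Epha4 averaged 13.8 CPM in phillyrin libraries and 39.9 CPM in OGD/R libraries, the widest gap on the log axis, while the groups of Ephb3, Efnb1 and Efnb3 overlapped.

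In counts, 9 of the 10 members passed the filter on low counts and the exception was Epha7. Of these 9, 0 were higher and 4 lower with phillyrin at the 0.05 threshold of edgeR's adjusted p. The 4 were Epha4, Epha2, Efnb2 and Efna5. Of all genes tested, 16.0% were higher and 15.6% lower. For 6 of the 9 the groups did not overlap, where this held for 43.1% of all genes tested. For 5 of the 9 they did not overlap and the phillyrin libraries were the lower, where this held for 21.6% of all genes tested. Their median log2 fold change was -0.25, against -0.01 over all genes tested. Because the members were chosen with this contrast in view, nothing is read from these shares.

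Epha4, Epha2 and Efnb2 are the receptor with the largest difference, the most abundant receptor and the most abundant ligand, and the 250 bases before their starts are shown from RefSeq (GRCm38.p6). They lie at chr1:77515089-77515338 (minus strand), chr4:141300971-141301220 (plus strand) and chr8:8661243-8661492 (minus strand), and each is written 5′ to 3′ on the strand of its gene. Capitals mark matches on either strand to CAGCTG (an E-box), TGANTCA (AP-1), TGACG (the core bound by CREB and ATF factors), TATAAA or CCAAT.
Epha4: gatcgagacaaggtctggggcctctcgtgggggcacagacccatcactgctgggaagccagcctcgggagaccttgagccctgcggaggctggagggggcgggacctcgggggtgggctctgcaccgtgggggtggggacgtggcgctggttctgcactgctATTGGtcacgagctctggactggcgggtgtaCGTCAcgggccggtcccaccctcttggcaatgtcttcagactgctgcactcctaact
Epha2: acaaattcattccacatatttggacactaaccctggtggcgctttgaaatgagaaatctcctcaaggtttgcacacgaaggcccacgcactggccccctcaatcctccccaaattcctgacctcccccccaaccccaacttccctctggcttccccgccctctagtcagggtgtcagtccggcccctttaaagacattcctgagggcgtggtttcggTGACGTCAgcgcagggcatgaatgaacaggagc
Efnb2: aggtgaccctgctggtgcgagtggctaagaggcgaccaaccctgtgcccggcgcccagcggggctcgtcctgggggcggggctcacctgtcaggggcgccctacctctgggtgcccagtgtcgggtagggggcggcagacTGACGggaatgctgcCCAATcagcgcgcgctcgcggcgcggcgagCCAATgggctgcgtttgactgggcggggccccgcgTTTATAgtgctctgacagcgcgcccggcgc
The window of Epha4 holds 1 CCAAT box and 1 TGACG core, both on the opposite strand. That of Epha2 holds a palindrome made of 2 overlapping TGACG cores on opposite strands. That of Efnb2 holds 1 TGACG core and 2 CCAAT boxes, and 1 TATAAA match on the opposite strand. RefSeq windows matched 9 of the 10 members, 10 windows in all, and Efnb3 had no entry. A TGACG core was in 5 of these 10 windows and in 17.8% of all 32841 promoter windows of the same length, and a CCAAT box in 7 of 10 and in 33.9%. AP-1 sites were in 0 of the 10 and in 6.75% of all, the E-box in 1 and in 13.0%, and TATAAA in 1 and in 12.4%. The 10 windows include 2 overlapping ones of Epha7. The GC content of the 10 windows was 55.6% to 74.8%, against a median of 52.4% over all windows. Their CpG content, observed over expected, was 0.494 to 1.03, against a median of 0.374. TGACG itself holds a CpG, and the shares above were not matched for composition. The motif counts are matches of letters, with no measure of binding behind them.

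Of the other 12 genes of the families, 6 were tested. Efna1, the usual ligand of EphA2, stood at 5.85, 5.16 and 5.43 CPM in phillyrin libraries, against 8.87, 7.57 and 11.3 CPM in OGD/R libraries. It fell by 0.75 on the log2 scale (SE 0.15, edgeR adjusted p = 0.000141), and no phillyrin library reached the OGD/R range. Efna4 stood at 4.39, 4.71 and 4.17 CPM in phillyrin libraries, against 5.35, 6.80 and 7.58 CPM in OGD/R libraries, with a log2 fold change of -0.57 ± 0.16 (SE; adjusted p by edgeR 0.00705). Leaving out OGD/R replicate 3 ended that call (adjusted p by edgeR 0.0699). Efna1, Efna3 and Efna4 lie together on chromosome 3 between 89179040 and 89245335. Efna3 averaged 0.979 ± 0.149 CPM in phillyrin libraries and 1.14 ± 0.343 CPM in OGD/R libraries (SD, n = 3 each), on 14 to 28 counts a library, and did not pass (adjusted p by edgeR 0.677).

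Ephb6, a receptor without kinase activity, stood at 8.01, 10.9 and 9.11 CPM in phillyrin libraries, against 8.76, 5.31 and 7.11 CPM in OGD/R libraries. Its log2 fold change of 0.42 ± 0.15 (SE) passed the threshold (edgeR adjusted p = 0.0290), although the groups overlapped. It no longer passed with library size only (0.38, adjusted p by edgeR 0.0608) or with DESeq2, where the value stayed at 0.42 (adjusted p by DESeq2 0.0676). Leaving out OGD/R replicate 2 lowered it to 0.25 (adjusted p by edgeR 0.264) and leaving out phillyrin replicate 2 to 0.29 (adjusted p by edgeR 0.222). Without OGD/R replicate 3 the value was 0.43 with a wider SE of 0.17 (adjusted p by edgeR 0.0666). Efna2 and Epha1 did not pass (edgeR adjusted p = 0.714 and 0.720). Epha1 lies opposite Zyx, which stood at 575 ± 18.7 CPM in phillyrin libraries and 536 ± 22.7 CPM in OGD/R libraries (SD, n = 3 each), so the source of the reads of Epha1, 2.34 CPM in phillyrin libraries and 2.60 CPM in OGD/R libraries, is uncertain. The other 6 were not tested. Epha6 and Ephb1 had no count, and Epha8 had 0 in each phillyrin library and 3, 3 and 8 in OGD/R libraries 1 to 3. Epha3 had 14 counts over all 6 libraries, Epha5 had 40 and Epha10 had 3.

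**Figure D2:**
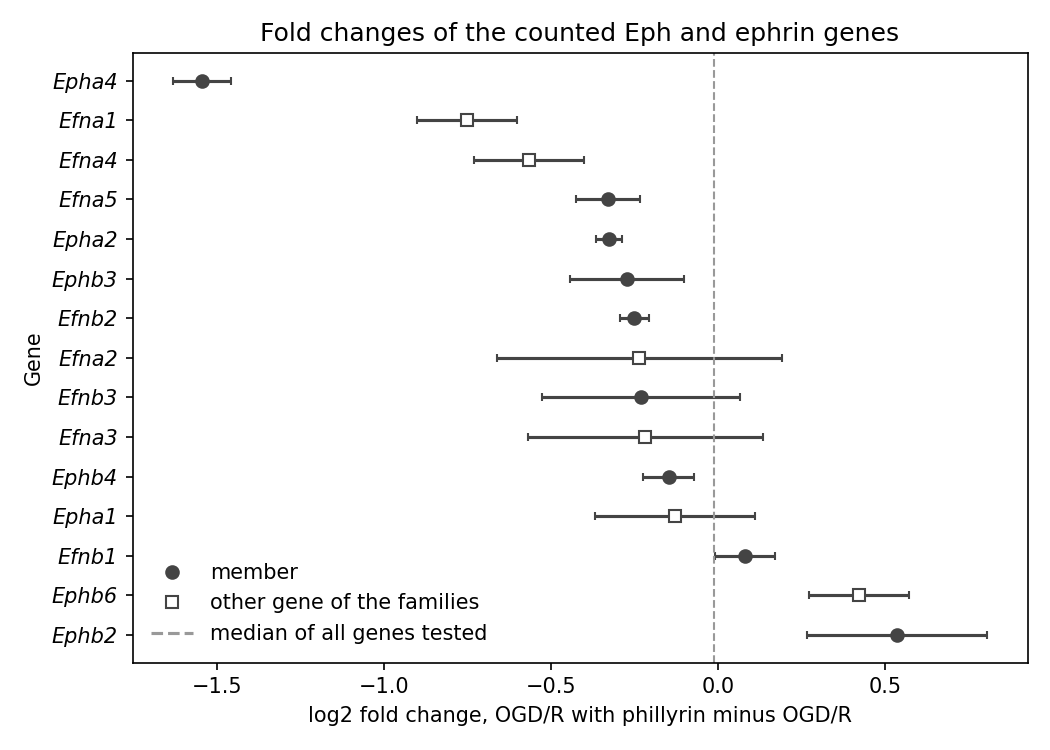
Log2 fold change (phillyrin minus OGD/R) with its SE for the 15 genes of the families that passed the filter on low counts, 9 members as filled circles and 6 other genes as open squares, with the largest decrease at the top. The values of 12 genes lie below 0 and those of 3 above. Epha4, selected for the size of its decrease, is farthest from the dashed median of all genes tested, at -1.54.

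Levels between genes were compared per length, in the authors' FPKM, which are not scaled by TMM factors. Epha2 led in both groups, at 43.7 ± 2.07 FPKM in phillyrin libraries and 56.6 ± 1.51 FPKM in OGD/R libraries (SD, n = 3 each). Efnb2 was second, at 15.5 ± 0.650 FPKM in phillyrin libraries and 19.0 ± 0.0791 FPKM in OGD/R libraries (SD, n = 3 each). No other gene of the families overlapped either of them in either group. Behind them in OGD/R libraries came Ephb4, Efnb1, Efna1, Epha4, Efna5 and Efna4, from 6.19 to 4.17 FPKM, each overlapping its neighbour in this order. Epha4 was the sixth of this order in OGD/R libraries, at 5.03 ± 0.395 FPKM, and the ninth in phillyrin libraries, at 1.69 ± 0.188 FPKM (SD, n = 3 each). There it lay below Ephb6 and above Ephb3 and overlapped neither. Ephb3, Epha1, Efnb3, Efna3, Efna2 and Ephb2 were below 1 FPKM on average in both groups.

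The FPKM of all 14 receptors summed to 52.6, 57.1 and 54.3 in phillyrin libraries, against 72.9, 68.9 and 72.3 in OGD/R libraries. Epha4 made up 3.46%, 2.58% and 3.25% of that sum in phillyrin libraries, against 7.12%, 6.65% and 7.36% in OGD/R libraries. Since Epha4 was selected for the size of its decrease, its lower share and its lower place by FPKM are no separate results. The sums consist mostly of selected members and are likewise a description. The share of Epha2 was 79.9% ± 0.663 in phillyrin libraries and 79.2% ± 0.336 in OGD/R libraries (SD, n = 3 each), and its groups overlapped. The EphA receptors summed to 46.0 ± 2.03 FPKM in phillyrin libraries and 62.4 ± 1.95 FPKM in OGD/R libraries, and the EphB receptors to 8.69 ± 0.373 FPKM in phillyrin libraries and 9.02 ± 0.199 FPKM in OGD/R libraries (SD, n = 3 each). The 8 ephrins summed to 31.9 ± 0.812 FPKM in phillyrin libraries and 40.2 ± 1.69 FPKM in OGD/R libraries (SD, n = 3 each). Of that sum Efnb2 made up 48.7% ± 1.60 in phillyrin libraries and 47.4% ± 2.07 in OGD/R libraries, and Efnb1 18.3% ± 1.76 in phillyrin libraries and 14.2% ± 0.145 in OGD/R libraries (SD, n = 3 each). In bulk samples fewer cells that make a transcript and less of it per cell cannot be told apart.

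**Figure D3:**
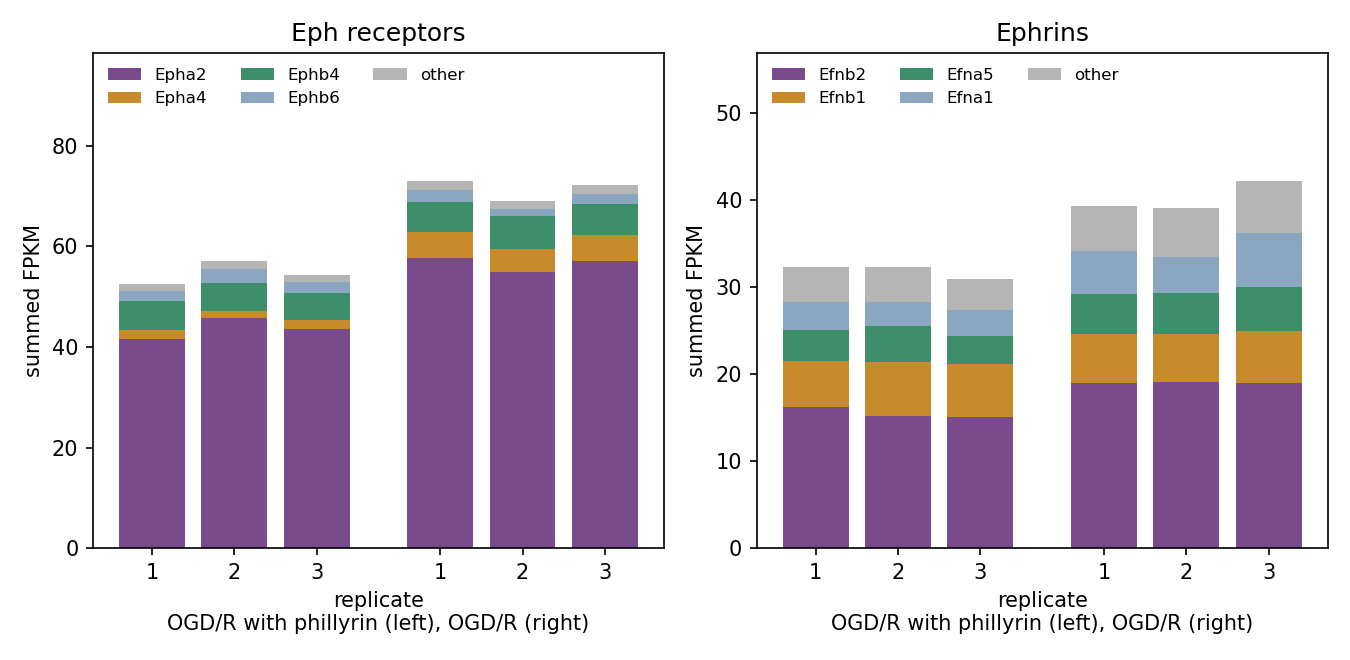
Stacked FPKM of the Eph receptors (left panel) and the ephrins (right panel) in each library, with phillyrin libraries left of OGD/R libraries and the less abundant genes summed as other. Epha2 fills about the same share of the receptor bar in all libraries. The segment of Epha4, selected for its decrease, averages 3.09% of that bar in phillyrin libraries and 7.04% in OGD/R libraries.

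The spread between replicate libraries, over 3 libraries a group, differed among members. Counting error, which is larger for sparse genes, was not taken out of it. The coefficient of variation of Epha2 was 4.85% in phillyrin libraries and 2.59% in OGD/R libraries, and that of Efnb2 3.61% in phillyrin libraries and 0.496% in OGD/R libraries. For Epha4 it was 11.5% in phillyrin libraries and 7.85% in OGD/R libraries. For the sparse Efnb3 it was 33.8% in phillyrin libraries and 27.3% in OGD/R libraries.

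The genes whose profile over the 6 libraries was most like that of Epha4 were Ccdc88c, Prl2c2, Mertk, Hba-a1 and Tslp. Likeness was the root mean square difference of log2 CPM after each gene's mean was subtracted, and it was 0.131, 0.133, 0.178, 0.190 and 0.193 in this order, against a median of 0.775 over the 9785 genes compared. Ccdc88c averaged 2.82 CPM in phillyrin libraries and 7.01 CPM in OGD/R libraries. Mertk, a receptor tyrosine kinase for the uptake of dying cells, averaged 12.8 ± 1.77 CPM in phillyrin libraries and 31.5 ± 1.20 CPM in OGD/R libraries (SD, n = 3 each). Prl2c2 and Hba-a1 have near-identical sister genes, so the origin of their reads is uncertain. All 5 were lower in phillyrin libraries, as the measure requires of any gene near Epha4.

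Genes that carry or end the Eph and ephrin signal went both ways. They were taken as 4 lists of 89 genes from general knowledge of the pathway, with earlier results of these data known, 78 were tested, and 3 of the lists are described one by one. Of the 78, 18 rose and 11 fell (edgeR adjusted p at the 0.05 threshold), 37.2% of those tested, against 31.7% of all genes, of which 16.0% rose and 15.6% fell. Their median log2 fold change was -0.005. Without TMM factors 11 rose and 13 fell, and over all genes 34.8% of calls were then higher, against 50.6% with them.

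Among receptor-proximal kinases, phosphatases and adaptors, which bind the phosphorylated receptor, 4 of 25 tested rose, 1 fell and 20 did not pass. This is 20% called, where 31.7% of all genes tested passed. Fyn, a Src family kinase downstream of EphA4, rose to 323 ± 13.9 CPM in phillyrin libraries, against 256 ± 6.50 CPM in OGD/R libraries (SD, n = 3 each; log2 fold change 0.34 ± 0.04 SE, adjusted p by edgeR 4.17e-09). The adaptor Crk rose to 435 ± 3.81 CPM in phillyrin libraries, against 374 ± 0.996 CPM in OGD/R libraries (SD, n = 3 each). Socs2, a subunit of a ubiquitin ligase that targets receptors and their signals, had a log2 fold change of 0.51 ± 0.04 (SE; adjusted p by edgeR 3.03e-12). The kinase Src itself stood at 123 ± 5.97 CPM in phillyrin libraries and 126 ± 0.537 CPM in OGD/R libraries (SD, n = 3 each) and did not pass (edgeR adjusted p = 0.687).

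Of 15 tested partners of ephrin reverse signalling, 5 rose, 5 fell and 5 did not pass. The share called was 66.7%, where 31.7% of all genes tested passed, 16.0% higher and 15.6% lower. Because the list was drawn up with earlier results of these data known, nothing is read from its share. Ngfr, the p75 neurotrophin receptor, which pairs with ephrin-A in axons, fell to 15.6 ± 1.53 CPM in phillyrin libraries, against 33.1 ± 0.580 CPM in OGD/R libraries (SD, n = 3 each; log2 fold change -1.07 ± 0.08 SE, adjusted p by edgeR 5.83e-13). Cav1, caveolin, fell to 220 ± 0.746 CPM in phillyrin libraries, against 300.4 ± 2.76 CPM in OGD/R libraries (SD, n = 3 each). Sdcbp, syntenin, which binds the tail of ephrin-B and lies opposite Nsmaf, had a log2 fold change of 0.23 ± 0.04 (SE; adjusted p by edgeR 2.07e-06).

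Of 14 tested genes of cleavage and turnover, 3 rose, 1 fell and 10 did not pass. Here 28.6% were called, where 31.7% of all genes tested passed. Mmp14, a membrane protease that cuts EphA2, rose to 229 ± 8.42 CPM in phillyrin libraries, against 194 ± 4.93 CPM in OGD/R libraries (SD, n = 3 each). Adam10, which sheds ephrins, rose by less (log2 fold change 0.13 ± 0.04 SE, adjusted p by edgeR 0.00593), a call lost with library size only (edgeR adjusted p = 0.0562). Adam9 fell (log2 fold change -0.17 ± 0.04 SE, adjusted p by edgeR 0.00220). Without phillyrin replicate 3 its value was -0.10 (adjusted p by edgeR 0.0308).

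Of the 44 other receptor tyrosine kinases, 23 were tested, of which 1 rose and 9 fell, 43.5% of those tested, where 31.7% of all genes tested passed, 16.0% higher and 15.6% lower. This list too was drawn up with earlier results of these data known, and nothing particular to it is read from its share. Mertk was at -1.30 ± 0.09 (SE) on the log2 scale and Pdgfra, a PDGF receptor, at -0.74 ± 0.10 (SE; adjusted p by edgeR 1.51e-07). Met, the receptor for hepatocyte growth factor, fell to 174 ± 5.44 CPM in phillyrin libraries, against 215 ± 5.12 CPM in OGD/R libraries (SD, n = 3 each). The most abundant of them, Axl and Ddr2, did not pass (edgeR adjusted p = 0.745 and 0.974). Over the 23 tested, log2 fold changes ran from -2.15 to 1.02, the lowest below those of Mertk and Epha4, with a median of -0.11.

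**Figure D4:**
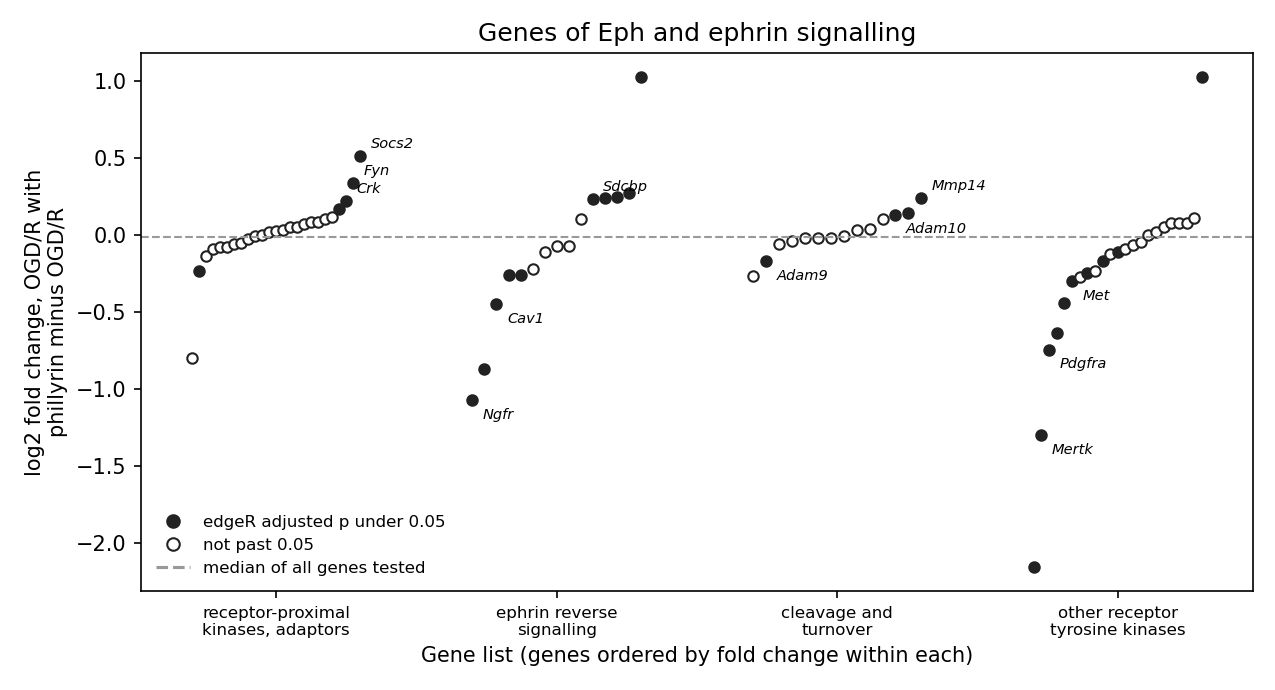
Log2 fold change (phillyrin minus OGD/R) of each tested gene in 3 of the 4 lists of Eph and ephrin signalling and in the list of other receptor tyrosine kinases, ordered within each list; filled points passed the 0.05 threshold and open points did not. Filled points lie on both sides of the dashed median in the first 3 lists, and mostly below it in the last, where 9 of the 10 genes that passed fell.

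Markers of endothelium and leukocytes were mostly at or near 0, and those of nerve and glia in part. Of 10 endothelial markers, 7 were below 0.5 CPM in every library and Kdr, Tie1, Erg, Emcn and Robo4 had no count. Their sum was 6.82 to 7.58 CPM in phillyrin libraries and 10.0 to 10.5 CPM in OGD/R libraries. Flt1 made up most of it and fell (log2 fold change -0.64 ± 0.13 SE, adjusted p by edgeR 0.000309). Of 10 neural and glial markers, 5 were below 0.5 CPM in every library and Sox10 had no count. Their sum was 380 to 382 CPM in phillyrin libraries and 306 to 314 CPM in OGD/R libraries. Of the 5 tested, with log2 fold changes from 0.13 to 0.61, Ncam1, Map2 and Tubb3 rose. This is 60% of those tested, where 31.7% of all genes tested passed, and nothing is read from that share. Of 10 leukocyte markers, 8 were below 0.5 CPM in every library and Adgre1, Itgam, Tyrobp and Cd3e had no count, with sums of 3.29 to 4.56 CPM in phillyrin libraries and 2.37 to 3.30 CPM in OGD/R libraries. The part of these shifts in the values of the Eph and ephrin genes was not tested.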

How the data were processed

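Raw read counts per gene and the FPKM made from them were deposited by the authors for each library, per the file headers. The submitters' processing notes name build GRCm39 and the tools DESeq2 1.34.0, featureCounts 2.0.3, HISAT2 2.2.1 and Trimmomatic 0.39, without roles. The strand setting and the handling of multiply aligned reads are not stated there. The FPKM deposited by the authors equalled counts divided by gene length and library total. Columns were matched by sample title, and all 6 sample columns were used.

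Genes were filtered with filterByExpr, scaled with TMM factors, and compared by the quasi-likelihood test of edgeR (edgeR 4.0.16, limma 3.58.1, R 4.3.3), two-sided, with Benjamini-Hochberg adjustment over 11658 genes. The SE is the log2 fold change divided by the square root of F. An exact permutation test over 3 against 3 libraries cannot give a two-sided p below 0.1. Nothing in the labels says that libraries came from separate cultures, so p-values may measure technical spread only. The members and lists were chosen with earlier results of these data known. The text names all members, the other tested genes of the families, the 3 called genes with the smallest p-value of each pathway list described and of the kinase list, and the 5 genes nearest to Epha4. Other genes were named after their values were seen. The fourth pathway list enters the summed counts and is not reported here by itself. On simulated counts (11581 genes) the test recovered 78.0% of the changes of 1.25-fold and 96.0% of the 2-fold ones, with 9 false among 185 calls. Few genes were changed there, 50 of them by 1.25-fold and 50 by 2-fold, in independent draws. In the data 31.7% of genes were called, so these rates need not hold for them. The alternatives changed the scaling (RLE factors, or library size only), the test (limma-voom, or DESeq2 1.42.0), the filter (none, or a mean of at least 1 CPM) or the samples (each library left out), or added the replicate block.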

Additional observations from a re-analysis of the deposited data

How the results depend on the processing

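The median log2 fold change of the 9 counted members lay between -0.29 (library size only) and -0.18 (without phillyrin replicate 2) over 13 alternatives. For Epha4 the value lay between -1.61 and -1.43, for Epha2 between -0.37 and -0.28, for Efna5 between -0.43 and -0.26, and for Efnb2 between -0.29 and -0.23. Of the pathway genes, 22 to 30 passed, with 11 higher under library size only as the one value more than 1.5 times from the 18 given above. With 1 library left out, 22 to 29 passed, 12 to 20 of them higher. Of the other 12 genes of the families, 1 passed without OGD/R replicate 3 and 2 or 3 without another library. With 1 library left out Epha1 ranged from -0.34 to 0.020 and Efna3 from -0.39 to 0.030, Epha1 turning positive without phillyrin replicate 1 and Efna3 without OGD/R replicate 1, and neither passed in any setting. Among sparse members Efnb3 ranged from -0.52 to -0.01 with 1 library left out. Over all genes 2901 to 3768 passed. Same-numbered libraries of the groups did not deviate together (correlations of deviations from 0.003 to 0.006 over 11658 genes), and the numbers are not said to pair them. With the replicate block 3709 genes passed, 28 of them pathway genes and 3 others of the families, and the median of the members was -0.25. Genes near 1 CPM, such as Efna3 and Efnb3, rest on few counts, which limits their precision.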
